A study of Mus musculus with 6 samples.

Results

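St14, F2rl1 and Scnn1a encode a membrane protease, a receptor it can switch on, and a subunit of the sodium channel of barrier epithelium. They are 3 of the 16381 entries per the authors' deposited table, which compares p63-excised with p63-intact mouse squamous cell carcinomas. They were taken from that table by exact name, and they were chosen for their rise in the p63-excised tumours, so their own changes are given as a description and support nothing further. The rule has no threshold, so no genes stand just inside or outside one.

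Matriptase, the product of St14, is a serine protease anchored in the plasma membrane of epithelial cells. It activates other proteases, among them prostasin, and in mouse skin it is required for a working epidermal barrier. Par2, the product of F2rl1, is a G protein-coupled receptor that fires when a protease trims its outer end and exposes a tethered ligand. Scnn1a encodes the alpha subunit of the epithelial sodium channel, through which sodium enters epithelial cells and whose opening is raised by proteases of the same kind.

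The p63-excised tumours (3 arrays) came from tamoxifen-treated hosts and the p63-intact tumours (3 arrays) from vehicle-treated hosts. In both groups the tumour cells carried 1 genotype, p53+/-, p63L/L; K14-CreER, on a mixed C57BL/6 and CD1 background, and both groups descend from a tumour raised with weekly DMBA, a skin carcinogen. The disaggregated tumour was placed orthotopically in Nude mice, left for 13 days and then dosed on 5 consecutive days, and RNA of the whole tumour was taken 1 to 3 days later. Cre acts only in tumour cells that use the keratin 14 promoter, and the whole-tumour RNA also holds that of stroma, vessels and the immune cells that a Nude mouse still has. Tamoxifen and excision always go together, so their effects cannot be told apart. Tumours are numbered in the labels, with no word on whether each grew in its own mouse, so a p-value reflects only how these samples vary, and part of that may be technical. In whole-tumour RNA, more cells of a type and more RNA per cell cannot be told apart.

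Each array reads 45281 probes, of which 11964 to 14520 were detected on p63-excised arrays and 13757 to 16096 on p63-intact arrays. A limma fit on the deposited intensities called 604 of 13727 tested probes (4.4%, Benjamini-Hochberg adjusted p below 0.05). The files do not pair probes with gene names, so values per array cannot be given for St14, F2rl1 or Scnn1a, nor genes whose pattern over arrays is most like theirs. All gene values below are those of the authors' deposited table. It lists only entries with an unadjusted p up to 0.462, and a gene outside it is called not listed. Its header gives no direction, and the sign was read from its name as excised minus intact. Fgfr2, the receptor gene in the study's title, has a log2 change of -1.0 (adjusted p = 0.0281) per the authors' deposited table. Trp63, the targeted gene, has -0.25 and did not pass per the authors' deposited table (adjusted p = 0.751). Which part of the Trp63 transcript is read is not known, so that value does not check the labels. Keratin 14 and keratin 5, markers of basal squamous epithelium, have mean log2 levels of 14.02 and 11.65 per the authors' deposited table, 14.02 being the highest level listed.

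St14 (listed as ST14) had a log2 change of 0.96, a fold of 1.94, at a mean log2 level of 6.17 per the authors' deposited table. With equal weight on both groups, that mean and change imply log2 levels of 6.65 in p63-excised tumours and 5.69 in p63-intact tumours. Dividing the change by its t of 11.96 gives a standard error of 0.0803 and a 95% interval from 0.77 to 1.15. The interval uses the 6.69 degrees of freedom at which the t and p columns of the authors' deposited table match. The unadjusted p was 9.26e-06, the 30th smallest of the authors' deposited table, and the adjusted p was 0.014 with every probe on the array counted as a test.

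F2rl1 (listed as F2RL1) had a log2 change of 0.97, a fold of 1.96, at a mean log2 level of 6.33 per the authors' deposited table. The implied log2 levels are 6.815 in p63-excised tumours and 5.845 in p63-intact tumours. Its t of 10.28 gives a standard error of 0.0944 and a 95% interval from 0.74 to 1.20. It stood 56th by p per the authors' deposited table (p = 2.43e-05, adjusted p = 0.0197).

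Scnn1a (listed as SCNN1A) had a log2 change of 1.24, a fold of 2.36, at a mean log2 level of 6.29 per the authors' deposited table. The implied log2 levels are 6.91 in p63-excised tumours and 5.67 in p63-intact tumours. Its t of 11.79 gives a standard error of 0.105 and a 95% interval from 0.99 to 1.49. It stood 32nd by p per the authors' deposited table (p = 1.01e-05, adjusted p = 0.0143). Its change was the highest of the 3, but the intervals of all 3 overlap, and the differences between them were not tested because the table holds no values per array.

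**Figure D1:**
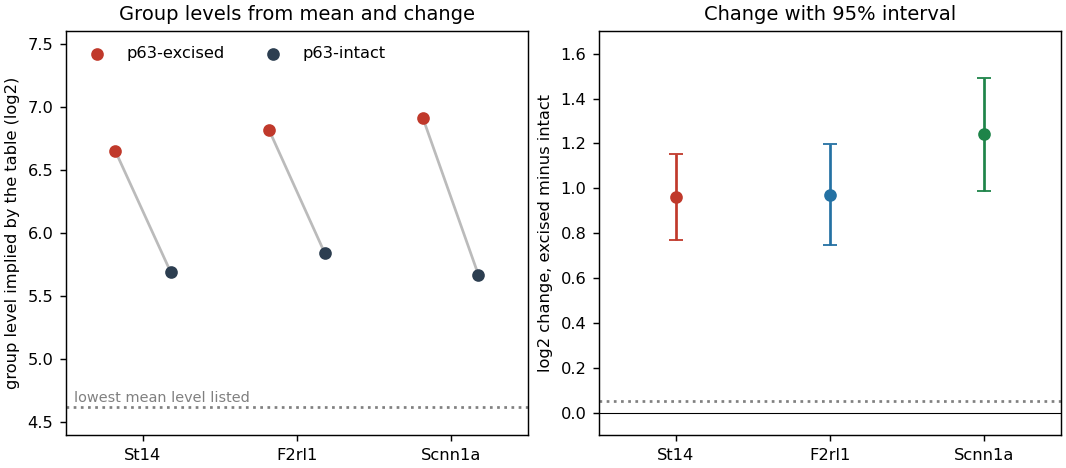
Left: log2 levels in p63-excised (red) and p63-intact (dark) tumours implied by each gene's mean level and log2 change, with the lowest mean level listed, 4.62, dotted; levels are to be read within a gene only. Right: log2 change with its 95% interval, from the deposited change and t, with the median of all listed entries, 0.05, dotted; the intervals run from 0.74 to 1.49 and lie above the dotted line.

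All 3 genes therefore passed in the upward direction, as did 0.659% of all listed entries (0.501% passed downward), a share from which nothing is read here because the genes were chosen on this comparison. By size, Scnn1a ranked 85th, F2rl1 167th and St14 176th of all 16381 entries by log2 change per the authors' deposited table. The median mean log2 level of all listed entries was 4.94, and 56.69% lay under 5.0. In p63-intact tumours the implied levels of the 3 genes ran from 5.67 to 5.845. Whether background signal lowers their folds was not tested. The errors of the 3 genes were small for their level, and nothing is read from this either because the genes were chosen on this comparison. Among the 658 entries with a mean log2 level from 6.0 to 6.5, which hold all 3, the median standard error was 0.167 per the authors' deposited table. Only 95 of these 658 entries had an error as small as that of Scnn1a or smaller. In the same band 45 entries had a log2 change of at least 0.96, and 21 rose past the threshold per the authors' deposited table. Of all entries in the authors' deposited table, 178 had a change of at least 0.96, and 60 of these passed.

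**Figure D2:**
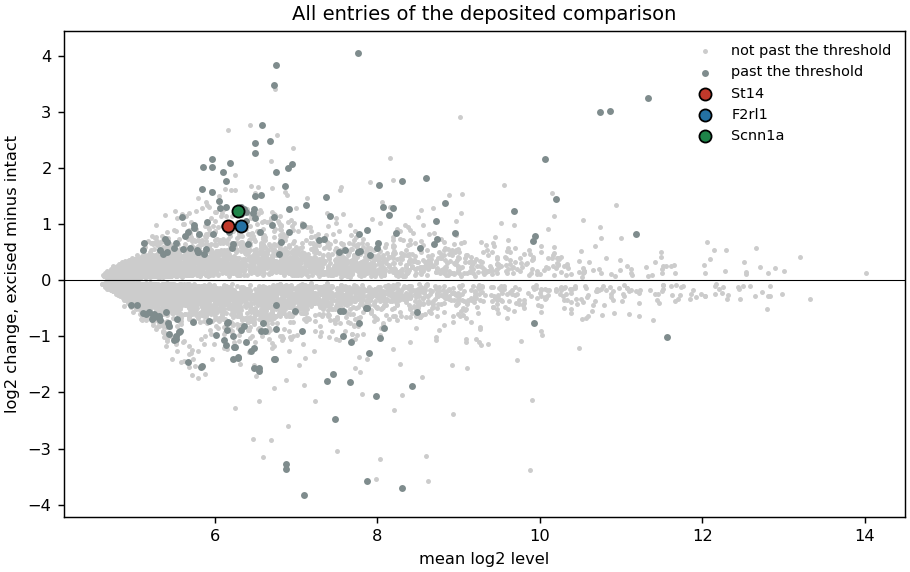
Log2 change (excised minus intact) against mean log2 level for the 16381 entries of the deposited table, dark points past an adjusted p of 0.05. St14 (red), F2rl1 (blue) and Scnn1a (green) sit at 0.96, 0.97 and 1.24, below the most extreme rises, which reach 4.04.

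Of 18 transmembrane proteases of matriptase's own class 7 were listed and 0 passed the test. Of all listed entries 1.16% passed, so 0 in so short a list says little. At an unadjusted p under 0.05, 2 of the 7 were positive, against 9.31% of all listed entries. Their family had a median log2 change of 0.17 against 0.05 for all listed entries of the authors' deposited table. Tmprss2 had the highest value of this family, a log2 change of 1.59 with implied levels of 6.755 in p63-excised and 5.165 in p63-intact tumours per the authors' deposited table (adjusted p = 0.0825). It passed when the 16381 listed entries were taken as all tests (adjusted p = 0.0298). Tmprss4 stood at 0.74 per the authors' deposited table (p = 0.012, adjusted p = 0.386). The airway-type proteases Tmprss11a and Tmprss11d stood at 0.21 and 0.17, hepsin (Hpn) at 0.10, Tmprss3 at 0.06 and Tmprss9 at -0.06 per the authors' deposited table. Of the 7, 4 had a mean log2 level under 5.0, as had 56.69% of all listed entries. Such levels are close to the lowest listed level of 4.62, where a change can hardly be seen.

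Prostasin and related anchored or secreted serine proteases had 5 of 8 genes listed and 0 past the test, where 1.16% of all listed entries passed. Their median log2 change was 1.15 per the authors' deposited table. Prss8, which encodes prostasin, the partner that matriptase activates and an activator of the sodium channel, had a log2 change of 1.15 with implied levels of 6.785 in p63-excised and 5.635 in p63-intact tumours. That change lies between those of St14 and Scnn1a, but its standard error was 0.381 per the authors' deposited table (p = 0.0205, adjusted p = 0.485). Prss22 stood at 1.75 and Prss27, a protease of stratified squamous epithelium, at 1.52 per the authors' deposited table (adjusted p = 0.233 and 0.154). Positive changes with an unadjusted p under 0.05 numbered 3 of the 5 listed, against 9.31% of all listed entries. The other 2, Prss21 and Prss32, had negative values and mean log2 levels of 4.81 and 4.78 per the authors' deposited table.

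Matriptase is held in check by Kunitz-type inhibitors, of which the gene of the main one, Spint1, had a log2 change of 0.84 per the authors' deposited table (standard error 0.134, adjusted p = 0.0799). Implied levels of Spint1 were 9.12 in p63-excised and 8.28 in p63-intact tumours, and it passed when only listed entries were counted as tests (adjusted p = 0.0289). Spint2, the gene of the second inhibitor, stood at 0.12 at a mean log2 level of 4.98 per the authors' deposited table. The serpin genes Serpine2, Serpinc1 and Serpina1a stood at 0.21, 0.08 and -0.06 there. Of 5 listed inhibitors 0 passed, where 1.16% of all listed entries did. Only 1, Spint1, had an unadjusted p under 0.05, and 9.31% of all listed entries were positive at such a p. The median log2 change of the 5 was 0.12.

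Proteins reported or proposed to be cut by matriptase had 9 of 14 genes listed and 0 past the test, where 1.16% of all listed entries passed. Their median log2 change was 0.07 per the authors' deposited table. There were 2 positive and 2 negative at an unadjusted p under 0.05, against 9.31% and 10.6% of all listed entries. The positive ones were the ephrin receptor gene Epha2 at 0.74 and the surface proteoglycan gene Sdc1 at 0.43 per the authors' deposited table (adjusted p = 0.14 and 0.136). Sdc1 passed with listed entries alone as tests (adjusted p = 0.049). The negative ones were Plau, the urokinase gene, at -0.61 and Cdcp1, a membrane glycoprotein gene matched through an older clone name, at -0.29 per the authors' deposited table (adjusted p = 0.536 and 0.185).

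**Figure D3:**
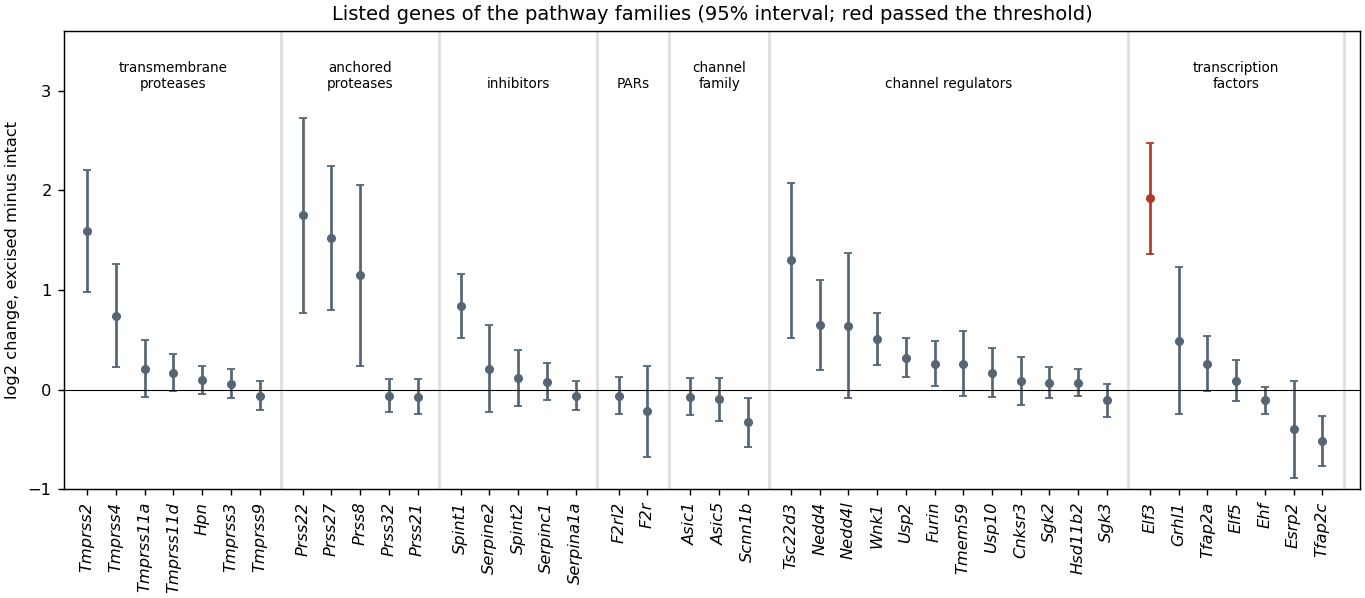
Log2 change (excised minus intact) with its 95% interval for each listed gene of 7 families around the protease, the receptor and the channel; red marks an adjusted p under 0.05. Elf3 at 1.92 is the only red point, and Tmprss2, Prss22, Prss27 and Tsc22d3 lie above 1.2 without passing.

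The other protease-activated receptors that were listed had negative values and did not pass. Of all listed entries 51.0% were positive and 1.16% passed. F2r, the gene of the thrombin receptor Par1, had a log2 change of -0.22 per the authors' deposited table, with implied levels of 6.96 in p63-excised and 7.18 in p63-intact tumours (p = 0.29). F2rl2 stood at -0.06 at a mean log2 level of 4.72, and F2rl3 was not listed. The 95% interval of F2rl1 starts at 0.74, but the difference between it and F2r was not tested.

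Among partners that carry the Par2 signal 12 of 16 genes were listed and 0 passed, with a median log2 change of 0.105 per the authors' deposited table. The kinase gene Prkca stood at 0.25, and the G protein genes Gna12, Gnai2 and Gnaq (matched through an older clone name) at 0.27, 0.51 and -0.38 per the authors' deposited table (p = 0.0179, 0.0398, 0.0415 and 0.0269). Genes known to respond to Par2 in inflamed epithelium had 6 of 13 listed, 3 positive and 3 negative, with 0 past the test and 0 at an unadjusted p under 0.05. Of all listed entries 1.16% passed, and 9.31% were positive and 10.6% negative at such a p. With 6 genes listed, these counts of 0 say little about the Par2 response. Cxcl1, a neutrophil chemokine gene, stood at 0.27, Icam1, an adhesion gene, at -0.18, and the chemokine gene Ccl2 at -0.22 per the authors' deposited table (p = 0.163, 0.13 and 0.174). Il1a and Il1b, the interleukin 1 genes, stood at 0.67 and -0.76 with standard errors of 0.604 and 0.567 per the authors' deposited table. Coagulation proteases, their inhibitors and cofactors and tissue factor had 6 of 9 genes listed. Of these, 0 passed, against 1.16% of all listed entries, and 0 had an unadjusted p under 0.05, against 9.31% (positive) and 10.6% (negative). Procr stood at -0.10, Tfpi at 0.12 and F10 at 0.29 per the authors' deposited table (p = 0.118, 0.141 and 0.187).

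The sodium channel is built from alpha, beta and gamma subunits. Scnn1b, the beta subunit gene, had a log2 change of -0.33 per the authors' deposited table (p = 0.0153, adjusted p = 0.432), opposite in sign to Scnn1a. Its implied levels were 4.855 in p63-excised and 5.185 in p63-intact tumours, both near the lowest level listed. Scnn1g, the gamma subunit gene, was not listed. The related acid-sensing channel genes Asic1 and Asic5 stood at -0.07 and -0.10 per the authors' deposited table, at mean log2 levels of 4.89 and 4.79.

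Regulators of the channel had 12 of 21 genes listed, 11 of them positive against 51.0% of all listed entries, and 0 past the test against 1.16%. Their median log2 change was 0.26 per the authors' deposited table, and 5 had a positive change at an unadjusted p under 0.05, against 9.31% of all listed entries. Tsc22d3, a glucocorticoid-induced gene whose product raises channel number at the cell surface, stood at 1.30, with implied levels of 6.58 in p63-excised and 5.28 in p63-intact tumours per the authors' deposited table (adjusted p = 0.272). Wnk1, a kinase gene of salt transport, stood at 0.51 and Usp2, a deubiquitinase gene, at 0.32 per the authors' deposited table (adjusted p = 0.183 and 0.293). Nedd4l and Nedd4, genes of ubiquitin ligases that remove channels from the surface, stood at 0.64 and 0.65 per the authors' deposited table (adjusted p = 0.798 and 0.381). Furin, the gene of a protease that cuts the alpha subunit, stood at 0.26 per the authors' deposited table (adjusted p = 0.58). Positive values were thus found for genes that raise and for genes that lower channel activity.

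The sodium pump carries out what the channel lets in. Of its 14 genes 5 were listed and 0 passed the test, where 1.16% of all listed entries did. Atp1b1, a pump subunit gene, stood at 0.67 and the pump regulator gene Fxyd6 at 0.73 per the authors' deposited table (p = 0.0292 and 0.0911). Other ion and water channels had 11 of 20 genes listed, 6 positive and 5 negative, and 0 past the test against 1.16% of all listed entries. At an unadjusted p under 0.05, 3 were positive and 2 negative, against 9.31% and 10.6% of all listed entries. Aqp5, the water channel gene of secretory glands, was closest, with a log2 change of 0.95 per the authors' deposited table (adjusted p = 0.0591). Clca2, an accessory gene of chloride channels matched through its older name, stood at -1.38, with implied levels of 6.42 in p63-excised and 7.80 in p63-intact tumours per the authors' deposited table (adjusted p = 0.0888). Both passed with listed entries alone as tests (adjusted p = 0.0214 and 0.0321). Slc9a3r1, the gene of a scaffold that binds ion transporters, stood at 0.68 (adjusted p = 0.201).

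Transcription factors of barrier epithelium, listed together with the splicing regulators Esrp1 and Esrp2, had 7 of 15 genes listed. Of these, 1 rose, against 0.659% of all listed entries, and 6 did not pass. Elf3, an ETS factor gene of differentiating epithelium, rose by 1.92 in log2 per the authors' deposited table (standard error 0.235, adjusted p = 0.0362), with implied levels of 7.72 in p63-excised and 5.80 in p63-intact tumours. Tfap2c and Tfap2a, AP-2 factor genes of epidermis, stood at -0.52 and 0.26 per the authors' deposited table (adjusted p = 0.16 and 0.739). Grhl1, a grainyhead factor gene, stood at 0.49 per the authors' deposited table (adjusted p = 1.0), and Grhl2 and Grhl3 were not listed.

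Genes that lie beside the 3 on their chromosomes were not part of their choice. The 3 protein-coding genes on each side, 18 in all, were taken from the order of a RefSeq annotation, and 11 were listed. Of these, 1 passed per the authors' deposited table, where 1.16% of all entries did. Of the 11, 5 had an unadjusted p under 0.05 in either direction, against 9.31% (positive) and 10.6% (negative) of all listed entries. The neighbours of F2rl1 had 5 listed entries, all negative, from -0.22 for F2r to -0.06 for F2rl2, where 51.0% of all listed entries were positive. F2r and F2rl2 were also counted above as receptors. Beside St14, Zbtb44 stood at 0.13 and Aplp2 at -0.29 per the authors' deposited table (p = 0.109 and 0.0492). Next to Scnn1a on one side lie Tnfrsf1a and then Plekhg6. Plekhg6 rose by 0.85 in log2 per the authors' deposited table (adjusted p = 0.0417), with implied levels of 6.095 in p63-excised and 5.245 in p63-intact tumours. Tnfrsf1a, a receptor gene for tumour necrosis factor, stood at 0.87 per the authors' deposited table (adjusted p = 0.243). On the far side of these, Cd9 stood at 0.24, and on the opposite side Tuba3a stood at 0.07, with Ltbr not listed.

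**Figure D4:**
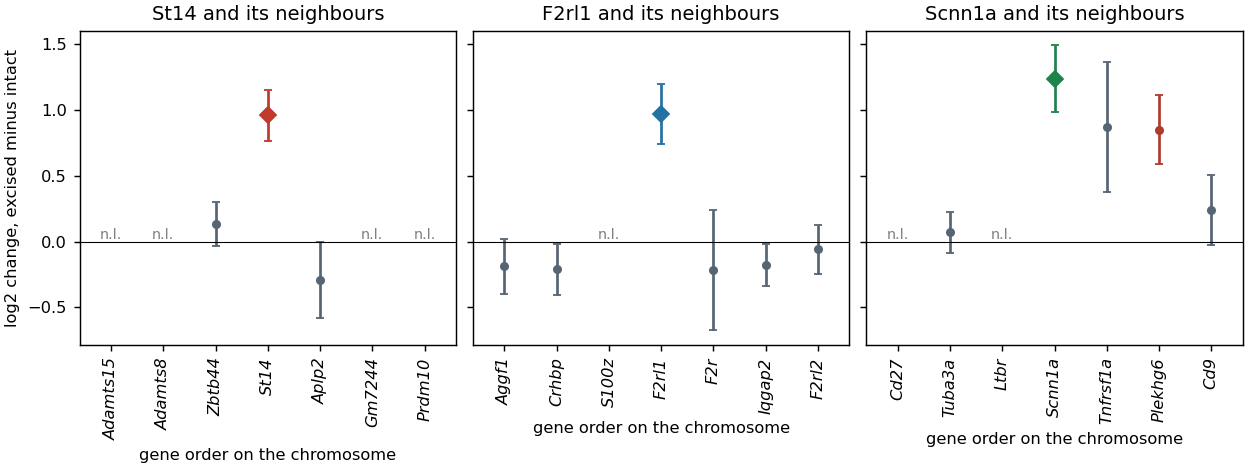
Log2 change (excised minus intact, 95% interval) of St14, F2rl1 and Scnn1a (diamonds) and of the 3 protein-coding genes on each side in chromosome order; n.l. marks genes not listed and red circles an adjusted p under 0.05. Tnfrsf1a at 0.87 and Plekhg6 at 0.85 stand beside Scnn1a, and the listed neighbours of St14 and F2rl1 lie between -0.29 and 0.13.

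Markers of other cell types were set beside the 3 genes. Over all listed entries 51.0% were positive, 9.31% were positive and 10.6% negative at an unadjusted p under 0.05, 0.659% rose and 0.501% fell. Of 9 gland markers 7 were listed and 6 were positive, with a median log2 change of 0.59 per the authors' deposited table. Of these 6, 4 had an unadjusted p under 0.05 (Ltf, Wfdc2, Dcpp1 and Aqp5, the last also counted above as a water channel). The 1 that rose was Wfdc2, the gene of a secreted protein of glandular epithelium, by 1.82 in log2 per the authors' deposited table (adjusted p = 0.0127). Ltf, the lactoferrin gene, stood at 3.41 with a standard error of 1.19 per the authors' deposited table (p = 0.0253, adjusted p = 0.527). Pigr, Wap and Dcpp1 were listed at mean log2 levels of 4.79, 4.84 and 4.90, close to the lowest level listed, 4.62. Of 8 epithelium markers 5 were listed, 4 positive and 1 negative, and 2 rose, the simple epithelial keratin genes Krt8 and Krt18. Krt8 rose by 4.04 and Krt18 by 2.44 in log2 per the authors' deposited table (adjusted p = 0.00953 and 0.0496). Krt14 stood at 0.12, Krt5 at 0.27 and Dsp, the negative one, at -0.25 there. All 8 muscle markers were positive with 0 past the test and 4 at an unadjusted p under 0.05, from 0.07 to 1.60 per the authors' deposited table. The 4 red cell markers were negative, from -2.32 to -0.15, with 0 past the test and 2 at an unadjusted p under 0.05. Prf1, the perforin gene, was the 1 of 6 listed lymphocyte markers that fell, by 3.36 per the authors' deposited table (adjusted p = 0.042). The other 5 had mean log2 levels under 5.0, as had 56.69% of all listed entries. Fibroblast, endothelial, myeloid, mast cell and fat markers had 0 past the test, with 1 endothelial and 2 myeloid markers negative at an unadjusted p under 0.05 and 0 in the other 3 lists. The part of any of these cell types in the values of St14, F2rl1 and Scnn1a was not tested.

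**Figure D5:**
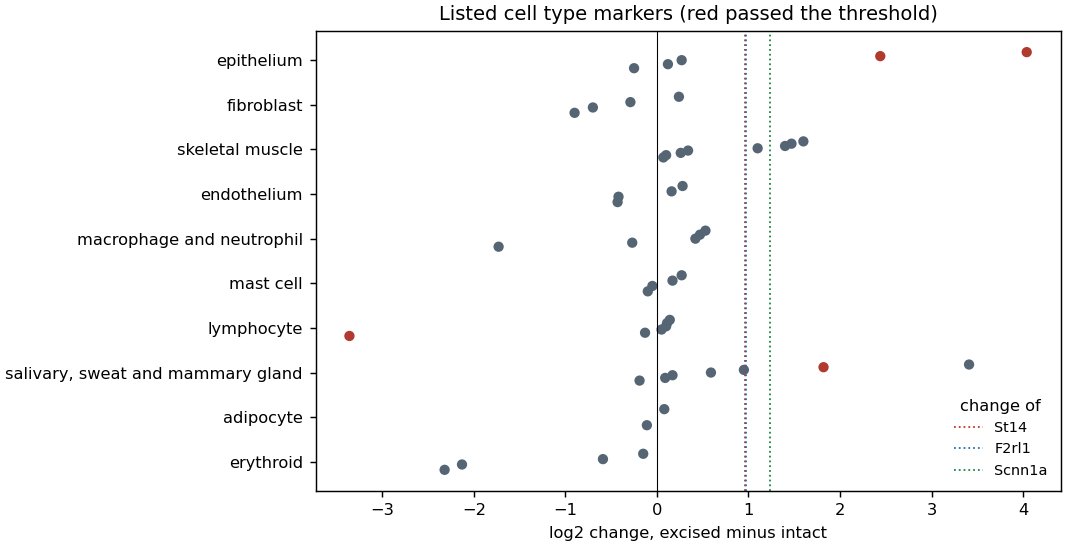
Log2 change (excised minus intact) of each listed marker in 10 lists of cell type markers; red points have an adjusted p under 0.05 and dotted lines mark the changes of St14, F2rl1 and Scnn1a. Krt8, Krt18 and Wfdc2 are the red points to the right and Prf1 the red point to the left.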

How the data were processed

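RNA of 6 whole tumours was hybridised to Illumina bead arrays as biotin-labelled cRNA, per the labels' protocols. The authors deposited an intensity per probe with its detection p-value, a table of log2 values per probe, and a table of 1 comparison. That table holds, per the file headers, for each gene name the mean log2 level, the log2 and signed fold change, a t score, a log-odds score and an unadjusted p-value. Its normalization and its way from probes to gene names are not given in the sources used here. R 2.12.0 is named in the submitters' processing notes. All value columns belong to a sample or to the comparison.

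The unadjusted p-values in that table were given a Benjamini-Hochberg adjustment over 45281 probes, an upper bound on the tests, with a threshold of 0.05. Standard errors are change over t. Implied group levels are the mean level plus or minus 1 part in 2 of the change. Probes detected (p under 0.05) on at least 3 arrays were fitted with limma 3.58.1 in R 4.3.3 after neqc with an offset of 16. Both steps were tested on simulated data. Names were matched as deposited or through older symbols in a RefSeq table of GRCm38.p6, whose coordinates are not printed because no source used here names the array's build. Promoter sequences matched 0 of the 3 genes. Named genes are the 3, every listed relative in the protease, receptor and channel families, the 3 smallest p of each other list and any that passed; further genes, such as Gnai2, Nedd4, Nedd4l, Furin, Il1a, Il1b and Grhl1, were chosen after their values were seen, and the comparison with chromosome neighbours was added after the data had been seen. An item that this rule takes is not reported here. The 3 genes and the lists were chosen with earlier results of these data known. Python 3.11.15 with pandas 2.3.3 was used. The number of arrays limits the precision.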

Additional observations from a re-analysis of the deposited data

How the results depend on the processing

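For St14, F2rl1 and Scnn1a the adjusted p ran from 0.00506 to 0.0212 with listed entries alone as tests and with a minimum mean log2 level of 5.5 (tried after the data had been seen). Counting fewer tests can only lower it. The minimum level drops entries but keeps 45281 as the number of tests, which can only raise it or leave it. Centring on the median of all listed entries moves the changes to 0.91, 0.92 and 1.19 and leaves p as it is. Each direction is set by construction, so these values say nothing about stability. Of 44 other named genes, 39 kept their side of the threshold with listed entries alone as tests and 5 came to pass. Of the entries in the authors' deposited table, 190 passed, 486 with listed entries alone as tests and 91 at 2-fold or more; more and fewer tests or criteria set these numbers by construction. The probe fit called 604 of 13727 probes, and separate fits called 419 with arrays scaled to a common median and 380 from the authors' value table. Further fits called 396 after normexp (offset 50) and 203 of 45281 with no filter on dim probes. The overlap of these calls and the cause were not tested. Leaving out 1 array gave from 186 (without p63-intact array 3) to 631 probes (without p63-excised array 2). It gave 301 and 224 without p63-intact arrays 1 and 2, and 328 and 233 without p63-excised arrays 1 and 3. With the replicate number as a replicate block 1324 probes passed. Equal numbers had correlated deviations of 0.339, 0.384 and -0.0635 for arrays 1, 2 and 3. Unequal numbers had from -0.373 to 0.14, so equal numbers 1 and 2 gave the highest values of all pairs. Not every equal pair was above 0.1, and the block was not used. These values do not show whether equal numbers mark a shared source. None of these probe settings could be applied to the 3 genes, whose probes are not paired with names in the files used here, and levels near 4.62 leave little room for a fall to be seen.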
